A study of Mus musculus with 12 samples.

Results

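The results concern 9 genes whose messenger RNA was higher in C17.2b cells than in C17.2a cells when no thyroid hormone was given: Btc, Adamtsl1, Negr1, Pcdh20, Mark1, Cyfip2, Prex1, Ndn and B3galt2. They are 9 of the 12774 gene symbols in the deposited table. They were chosen by symbol, and the choice rests on their values in the 6 libraries without T3, in which they hold 9 of the first 11 places when the genes past the threshold are ordered by the size of the difference between the lines. That difference is therefore given as a description, with no test.

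C17.2 is an immortalised neural progenitor line from mouse cerebellum. C17.2b cells stably expressed a tagged thyroid hormone receptor beta, and C17.2a cells a tagged receptor alpha, so the receptor and the line cannot be told apart. Whether each line is 1 clone is not given in the sources used here, and no library of cells without an added receptor was analysed here. Each line was kept 24 h without serum and then either given T3 (triiodothyronine, the active hormone) at 1e-07 M or left untreated. There was 1 library for each of C17.2b with T3, C17.2b untreated, C17.2a with T3 and C17.2a untreated at 6, 12 and 24 h, 12 in all. No group had a second library, so the 3 times serve as repeats, and a mean ± SD below is over the 3 times (n = 3), not over replicate cultures. Levels are in RPM, sequence tags of a gene scaled so that the deposited columns share 1 total, and fold changes are on the log2(RPM + 1) scale, which understates the change of genes near 1 RPM. Errors of fold changes are standard errors (SE) from limma. Genes below 1 RPM in all but 2 libraries of a fit, or in more, were not tested, and all 9 genes passed this filter in every main limma fit. For counts of overlap within C17.2a, the filter left out B3galt2 and Ndn.

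Thyroid hormone receptors are nuclear receptors that stay on DNA with or without hormone. They often bind pairs of the hexamer AGGTCA, and T3 changes which cofactors they carry, so that some genes are raised and others lowered by the hormone. In the developing brain T3 acts on the growth and differentiation of neurons and glia. The 9 genes have several roles. Btc (betacellulin) is a ligand of the EGF receptor family, and Adamtsl1 is a secreted matrix protein related to the ADAMTS proteases but without their catalytic domain. Negr1, of the IgLON family, and Pcdh20, a protocadherin, are adhesion proteins of the cell surface. Mark1 is a kinase that phosphorylates microtubule-associated proteins, Cyfip2 is a subunit of the WAVE complex that drives actin assembly, and Prex1 is a guanine nucleotide exchange factor for the GTPase Rac. Ndn (necdin) is an imprinted gene of the MAGE family expressed in neurons, and B3galt2 is a galactosyltransferase of the Golgi.

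The promoters of the genes are described first, because the lines differ in their thyroid hormone receptor and T3 lowered some of the genes. The windows are those of RefSeq on GRCm38.p6, 250 bases before to 50 bases after a gene's start, and 8 of the 9 genes had an entry, Mark1 with 2 windows. The hexamer AGGTCA, searched on both strands, occurred in 1 of the 9 windows (11.1%), against 16.2% of all 32544 windows. That match was in Cyfip2, on the strand of the gene. The direct repeat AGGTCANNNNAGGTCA, which contains the hexamer at both ends, was in 0 of the 9 windows, against 0.0154% of all windows. The motif TATAAA, also on both strands, was in 0 of the 9, against 13.6%. A match describes the letters of the window only. The 250 bases before the start are printed 5′ to 3′ on the gene's strand for Btc and Pcdh20, which fell with T3 in C17.2b, and for Cyfip2, which had the greatest difference of the 9 between the lines with T3. Capitals mark AGGTCA.
Btc, chr5:91402995-91403244, minus strand: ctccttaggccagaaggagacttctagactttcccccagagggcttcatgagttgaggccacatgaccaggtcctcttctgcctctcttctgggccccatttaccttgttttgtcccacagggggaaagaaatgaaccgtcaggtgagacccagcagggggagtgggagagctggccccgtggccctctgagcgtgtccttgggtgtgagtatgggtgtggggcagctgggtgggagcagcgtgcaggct
Pcdh20, chr14:88471397-88471646, minus strand: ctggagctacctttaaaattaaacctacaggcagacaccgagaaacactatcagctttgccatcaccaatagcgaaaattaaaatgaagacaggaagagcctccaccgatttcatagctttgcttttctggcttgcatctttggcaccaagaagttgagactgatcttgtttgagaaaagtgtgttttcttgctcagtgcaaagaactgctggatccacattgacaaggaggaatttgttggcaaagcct
Cyfip2, chr11:46312359-46312608, minus strand: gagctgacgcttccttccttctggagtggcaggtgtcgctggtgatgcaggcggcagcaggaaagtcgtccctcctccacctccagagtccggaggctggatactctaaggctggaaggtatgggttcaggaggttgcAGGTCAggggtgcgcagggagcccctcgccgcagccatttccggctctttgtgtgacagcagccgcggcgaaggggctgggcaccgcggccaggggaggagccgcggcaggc
The windows differed widely in base composition. Pcdh20 and B3galt2 had the lowest G + C, with 43.7% and 37.7%, while Cyfip2 had 70.7% and 1 of the Mark1 windows 85.7%, against a median of 53.0% over all windows. CpG dinucleotides, as observed over expected from the base composition, stood at 0.187 in Btc and 0.281 in Pcdh20, at 0.803 in Cyfip2 and 0.881 in Negr1, with a median of 0.387 over all windows.

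The libraries had an implied depth of 7.13e+06 to 1.91e+07 tags, and a floor of 3 tags, which reflects counting error alone, lies between 0.157 and 0.421 RPM. The C17.2a pair of 24 h stood apart: the Spearman correlation across genes of its T3 and untreated libraries was 0.941, against 0.977 to 0.985 for the other pairs. Its T3 library had no value for 875 symbols and its untreated library for 479. Where leaving out this pair changed a call or moved a value strongly, the value without it is given. None of the 9 genes shared its values with another symbol. Because the cells were measured in bulk, fewer cells of a kind and less RNA per cell cannot be told apart.

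Of the genes of secreted proteins, Btc had 30.01, 18.51 and 16.96 RPM at 6, 12 and 24 h in C17.2b with T3 and 93.34, 62.96 and 36.35 RPM in untreated C17.2b. In C17.2a it had 6.56, 6.51 and 2.62 RPM with T3 and 14.30, 11.55 and 6.23 RPM untreated. Every C17.2b library was above every C17.2a library, and within each line the T3 library was below the untreated one at each time.

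Adamtsl1 had 5.11, 2.83 and 2.52 RPM in C17.2b with T3 and 18.23, 15.87 and 16.28 RPM in untreated C17.2b. In C17.2a it had 0.60, 0.42 and 0.60 RPM with T3 and 1.86, 1.42 and 1.43 RPM untreated, and the C17.2a T3 values rest on 5 or 6 implied tags each. The 4 groups did not overlap for this gene, with the untreated C17.2b libraries highest and the C17.2a T3 libraries lowest.

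The adhesion gene Pcdh20 had 139.81, 96.35 and 78.92 RPM in C17.2b with T3 and 246.23, 228.97 and 302.21 RPM in untreated C17.2b. In C17.2a it had 39.56, 31.42 and 55.58 RPM with T3 and 55.13, 50.19 and 83.70 RPM untreated. After 24 h with T3, the C17.2b level of 78.92 RPM was below that of untreated C17.2a at 83.70 RPM, so for this gene the C17.2b cells with hormone overlapped with the C17.2a cells without it.

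Negr1 had 6.60, 7.26 and 6.73 RPM in C17.2b with T3 and 7.18, 8.70 and 13.43 RPM in untreated C17.2b. The values in C17.2a were 0.70, 1.06 and 0.48 RPM with T3 and 1.70, 1.24 and 1.43 RPM untreated. The T3 and untreated libraries overlapped in C17.2b and were close to one another at 6 and 12 h.

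Among the cytoskeletal regulators, Mark1 had 11.49, 8.06 and 7.01 RPM in C17.2b with T3 and 21.68, 15.96 and 12.48 RPM in untreated C17.2b. Its C17.2a values were 0.99, 0.78 and 1.79 RPM with T3 and 2.24, 1.51 and 1.43 RPM untreated. The highest of the 3 C17.2a T3 values came from the 24 h pair that stands apart.

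Cyfip2 had 22.88, 21.34 and 10.65 RPM in C17.2b with T3 and 22.00, 19.37 and 20.35 RPM in untreated C17.2b. In C17.2a it had 3.18, 2.12 and 1.07 RPM with T3 and 4.64, 3.64 and 4.39 RPM untreated. In C17.2b the T3 and untreated levels were alike at 6 and 12 h and apart at 24 h, while in C17.2a all 3 T3 values lay below all 3 untreated ones.

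Prex1 followed another course. It had 54.80, 58.10 and 27.05 RPM in C17.2b with T3 and 51.70, 82.87 and 48.83 RPM in untreated C17.2b. In C17.2a it had 41.05, 27.53 and 13.12 RPM with T3 and 11.06, 17.77 and 13.27 RPM untreated. With T3 the lines overlapped: C17.2a at 6 h, with 41.05 RPM, was above C17.2b at 24 h, with 27.05 RPM.

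Ndn had 5.53, 6.55 and 5.89 RPM in C17.2b with T3 and 7.18, 6.28 and 8.82 RPM in untreated C17.2b, against 0.30, 0.71 and 0.36 RPM in C17.2a with T3 and 1.39, 1.07 and 0.61 RPM in untreated C17.2a. B3galt2 had 3.40, 3.72 and 1.54 RPM in C17.2b with T3 and 5.92, 6.46 and 4.61 RPM in untreated C17.2b. In C17.2a it had 0.30 and 0.42 RPM with T3 and 0.62 and 0.53 RPM untreated at 6 and 12 h, and the table lists N/A, read as 0, at 24 h in both. Both were higher in every C17.2b library than in any C17.2a library, and their C17.2a values rest on 18 implied tags or fewer.

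**Figure D1:**
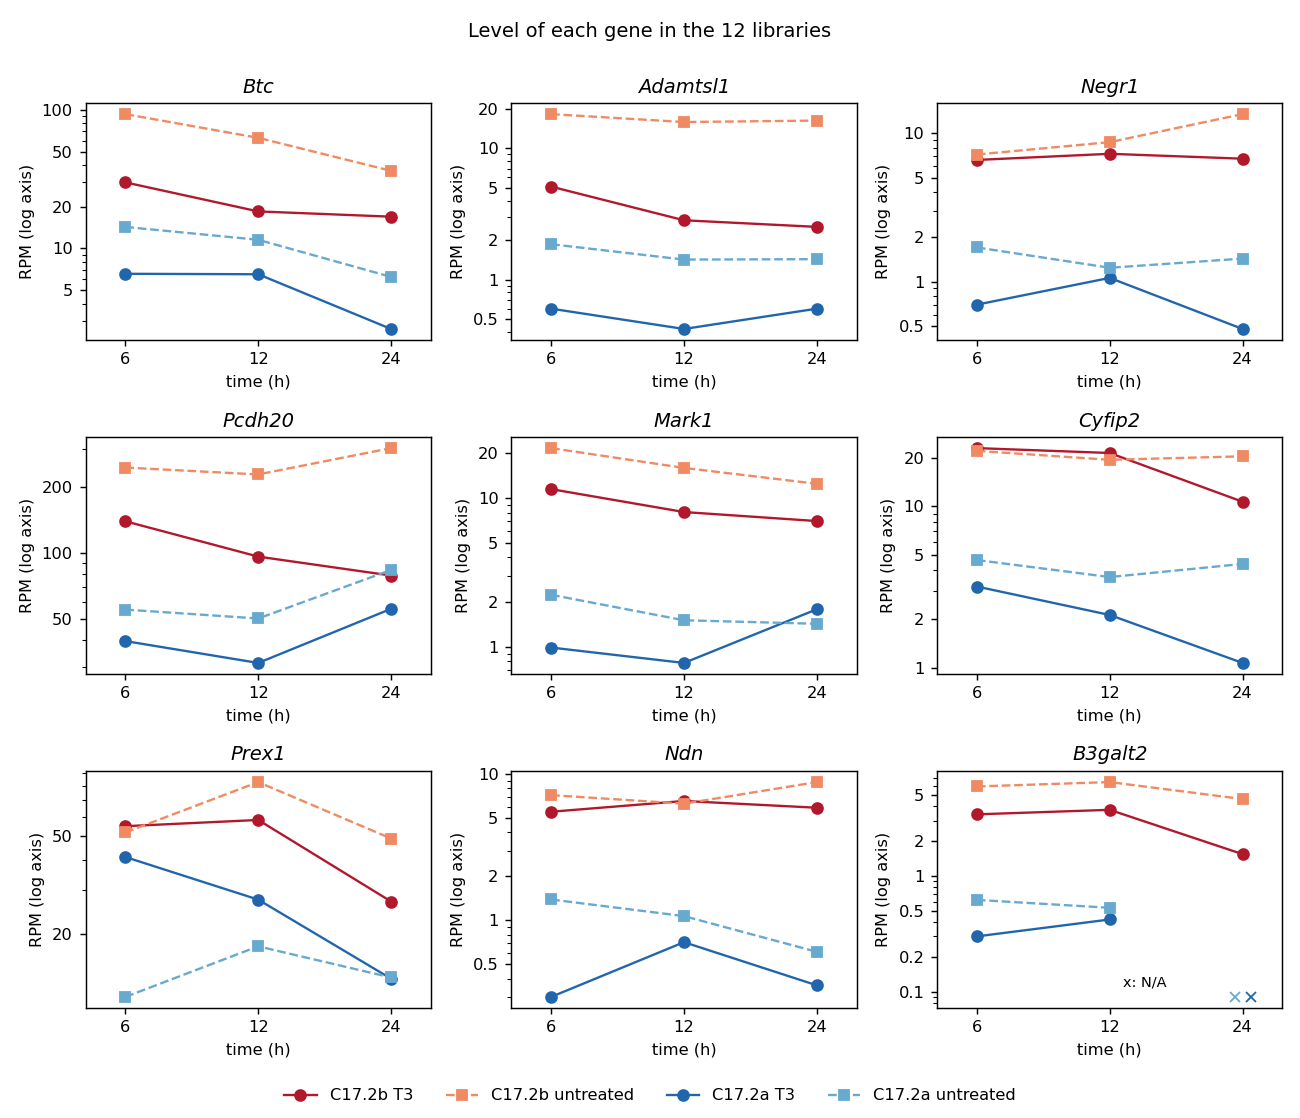
Level of each of the 9 genes in RPM (log axis) against time in h, with 1 point per library; circles are T3 and squares untreated libraries, red tones C17.2b and blue tones C17.2a, and crosses mark the 2 B3galt2 values listed as N/A. At each time the red points lie above the blue ones, except for Pcdh20 at 24 h, where 78.92 RPM in C17.2b with T3 stands beside 83.70 RPM in untreated C17.2a.

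Without T3, the difference that chose the genes ran from 2.03 (SE 0.14) for Prex1 to 2.79 (SE 0.18) for Adamtsl1 on the log2 scale. Adamtsl1 averaged 16.8 ± 1.26 RPM in untreated C17.2b and 1.57 ± 0.251 RPM in untreated C17.2a, and Pcdh20 averaged 259 ± 38.3 and 63.0 ± 18.1 RPM in the same groups. All 9 had no overlap between the lines, which 3.83% of the 10192 genes tested shared in the same direction. The genes were chosen on these libraries, so the absence of overlap describes the choice. B3galt2 was also below 1 RPM in every untreated C17.2a library and passed the filter through C17.2b alone. In all, 902 genes passed the threshold (8.85%), 299 of them higher in C17.2b (2.93%). Among these, Col15a1 at 2.51 and Ptprz1 at 2.41 were in the range of the 9 genes and are not among them. Just inside the lower end lay Prex1 at 2.03 and just outside it Fabp7 at 2.02.

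The libraries with T3 did not enter the choice, and in them the question is whether the genes still separate the lines when hormone is present. Measured levels of all 9 genes were higher in C17.2b than in C17.2a, by 0.82 (SE 0.20) for Prex1 to 2.62 (SE 0.22) for Cyfip2 on the log2 scale. None of the 9 passed the threshold of 0.05 for the p adjusted over all genes. Only 1 of the 10142 genes tested did (0.00986%), the collagen gene Col15a1. All 9 had an unadjusted p under 0.05 in limma, as did 14.7% of all genes tested, and 8 of the 9 had no overlap between the lines, against 8.44% of all genes higher in C17.2b. The median of the 9 was 1.91, against 0.07 for all genes tested. Adamtsl1, B3galt2 and Ndn had under 1 RPM in all 3 C17.2a T3 libraries and so passed the filter through the C17.2b libraries alone, which leaves them no way to overlap.

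Cyfip2 was at the top of the 9 with T3. It averaged 18.3 ± 6.66 RPM in C17.2b and 2.12 ± 1.06 RPM in C17.2a, and the ratio of C17.2b to C17.2a was 7.20, 10.1 and 9.95 at the 3 times with T3, against 4.74, 5.32 and 4.64 without it. Its adjusted p was 0.0541 in limma. Ndn differed by 2.27 (SE 0.22) and Negr1 by 2.18 (SE 0.23), each with an adjusted p of 0.0541 in limma. By size, Cyfip2, Ndn and Negr1 ranked 2, 9 and 13 of the 10142 genes. The kinase gene Mark1 differed by 2.17 (SE 0.29, adjusted p 0.0619 in limma), Btc by 1.91 (SE 0.25, adjusted p 0.0594) and B3galt2 by 1.61 (SE 0.23, adjusted p 0.0699).

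Adamtsl1, Pcdh20 and Prex1 were further from the threshold. Adamtsl1 differed by 1.50 (SE 0.26, adjusted p 0.108 in limma), and its ratio of C17.2b to C17.2a was 8.52, 6.74 and 4.20 at 6, 12 and 24 h with T3. Pcdh20 differed by 1.29 (SE 0.28, adjusted p 0.148 in limma), with ratios of 3.53, 3.07 and 1.42. Prex1 differed by 0.82 (SE 0.20, adjusted p 0.177 in limma), with ratios of 1.34, 2.11 and 2.06, and ranked 561 by size. As a share of the difference without T3, the difference with T3 was 127.6% for Cyfip2, 109.9% for Ndn, 104.2% for Negr1, 53.7% for Adamtsl1 and 40.2% for Prex1, with the other 4 between 63.1% and 81.1%. The untreated values chose the genes, so the shares are a description. They also depend on the pseudocount for genes near 1 RPM. With a pseudocount of 5, the difference was smaller with T3 than without it for Ndn (1.01 against 1.04) and Negr1 (1.05 against 1.17). For Cyfip2 it stayed larger with T3 (1.67 against 1.47), and for Adamtsl1 it was 0.60 against 1.73.

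The count of 0 of the 9 changed with the setting, and so did the count over all genes. With each library scaled by its median ratio, 5 of the 9 passed (Cyfip2, Ndn, Negr1, Btc and Mark1, adjusted p 0.0289 to 0.0457 in limma), as did 94 of 10172 genes. With the spread taken from all 12 libraries, all 9 passed (0.00104 to 0.035), as did 464 of 10577 genes. That fit takes part of its spread from the untreated libraries that chose the 9 genes, so it is not independent of the choice. Without the 24 h libraries, 5 of the 5 that could be tested passed (adjusted p 5.42e-33 to 7.57e-05 in limma), as did 1573 of 9808 genes. Fits without a time rest on few libraries per line and few residual degrees of freedom. Such small p-values and these counts are therefore not to be taken at face value. Genes that could not be tested were below 1 RPM in the C17.2a T3 libraries that remained. Without the 6 h libraries 0 of 6 passed (adjusted p 0.607 to 0.708 in limma), and without the 12 h libraries 0 of 5 (0.505 to 0.57). The values themselves without 24 h were 2.68 for Cyfip2, 2.08 for Negr1, 1.71 for Btc, 1.69 for Pcdh20 and 0.73 for Prex1.

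**Figure D2:**
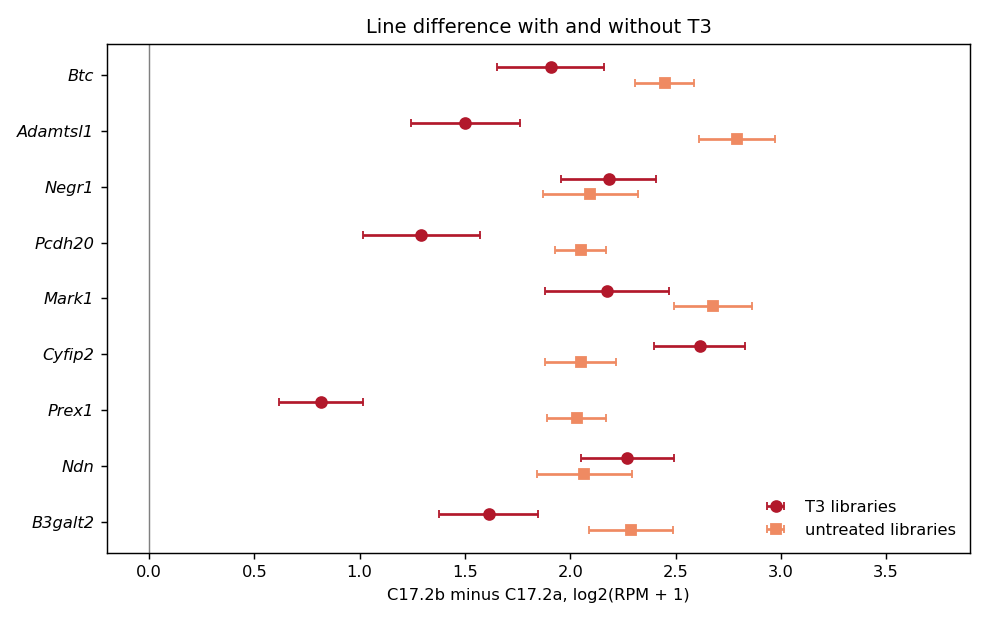
Difference between the lines, C17.2b minus C17.2a in log2(RPM + 1), for each of the 9 genes, with circles for the 6 T3 libraries and squares for the 6 untreated libraries that chose the genes; bars are 1 SE. The points run from 0.82 (Prex1) to 2.62 (Cyfip2) with T3 and from 2.03 to 2.79 without it.

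The hormone itself was then examined in each line. In C17.2b, T3 lowered 3 of the 9 genes past the threshold, Adamtsl1, Btc and Pcdh20, and raised 0. Over all 10577 genes tested, 0.860% fell and 2.25% rose in C17.2b, 3.11% together. The T3 value in C17.2b shares the untreated libraries in which these genes were chosen for being high, a choice that tends to lower a T3 effect in C17.2b and to raise one in C17.2a. All 9 values were negative in C17.2b, with a median of -0.82 against 0.05 for all genes, and are to be read with that choice in mind. Of 11 progenitor markers tested in C17.2b, 5 had positive and 6 negative values, and 2 fell in limma, Sox2 (-1.47) and Notch1 (-0.84). In C17.2a 3 were positive and 8 negative, and Notch1 fell (-0.91). The markers summed to 1474 to 3157 RPM in C17.2b with T3 and 3066 to 5730 RPM in untreated C17.2b, and to 1428 to 1707 RPM in C17.2a with T3 and 2377 to 5838 RPM in untreated C17.2a. Most of each sum was Vim, whose own value did not pass in C17.2b (-0.91, adjusted p 0.0852 in limma) or C17.2a (-1.18, adjusted p 0.0557). Their part in the T3 values was not tested.

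Adamtsl1, the matrix protein, fell by 2.03 on the log2 scale in C17.2b (SE 0.20, adjusted p 0.00198 in limma), to 3.49 ± 1.41 RPM with T3, against 16.8 ± 1.26 RPM untreated. The ratio of T3 to untreated was 0.280, 0.178 and 0.155 at 6, 12 and 24 h. The call held under all 13 alternatives run, with adjusted p of 3.41e-05 to 0.0452 in limma, and the T3 and untreated libraries were far apart at each time. The EGF family ligand Btc fell by 1.46 (SE 0.18, adjusted p 0.00559 in limma), to 21.8 ± 7.13 RPM with T3, against 64.2 ± 28.5 RPM untreated, with ratios of 0.322, 0.294 and 0.467. It no longer passed when the 6 h pair of this line was left out (adjusted p 0.0679 in limma) or the 12 h pair (0.100).

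Pcdh20 fell by 1.33 (SE 0.20, adjusted p 0.0115 in limma), to 105 ± 31.4 RPM with T3, against 259 ± 38.3 RPM untreated. Its ratio of T3 to untreated was 0.568, 0.421 and 0.261 at 6, 12 and 24 h, the lowest at the latest time. It no longer passed when the 12 h pair of this line was left out (adjusted p 0.120 in limma) or the 24 h pair (0.0712). Both Btc and Pcdh20 also lost their calls when the pairing of T3 and untreated libraries of a line and time was left out, with adjusted p of 0.260 and 0.0721 in limma.

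Mark1 and B3galt2 had no overlap between T3 and untreated libraries in C17.2b, as had the 3 genes that fell, 5 of 9 in all. Over all genes, 3.88% were lower with no overlap. Mark1 changed by -0.84 (SE 0.22, adjusted p 0.0899 in limma) and B3galt2 by -0.82 (SE 0.20, adjusted p 0.0729), neither past the threshold. Both passed without the C17.2a 24 h pair, which only enters through the shared spread (adjusted p 0.00406 and 0.0143 in limma). Negr1, Ndn, Cyfip2 and Prex1 had values of -0.41, -0.26, -0.23 and -0.42, with adjusted p of 0.564 to 0.874 in limma. For Cyfip2 the value without the C17.2b 24 h pair was 0.09.

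In C17.2a, T3 moved 0 of the 9 genes past the threshold, while 1.37% of all genes passed, 0.908% higher and 0.463% lower. Btc came nearest, at -0.92 (SE 0.18, adjusted p 0.0586 in limma), with 5.23 ± 2.26 RPM with T3 and 10.7 ± 4.10 RPM untreated. Its ratios of 0.459, 0.564 and 0.421 stand beside 0.322, 0.294 and 0.467 in C17.2b. Adamtsl1 had -0.74 (SE 0.20, adjusted p 0.138), Pcdh20 -0.57 (SE 0.20, adjusted p 0.222) and Cyfip2 -0.80 (SE 0.27, adjusted p 0.212 in limma). The Adamtsl1 value is understated, as its C17.2a levels are near 1 RPM. Its ratios of T3 to untreated were 0.323, 0.296 and 0.420 in C17.2a, against 0.280, 0.178 and 0.155 in C17.2b. The other negative values were -0.50 for Negr1, -0.47 for Ndn, -0.33 for Mark1 and -0.14 for B3galt2, with adjusted p of 0.323 to 0.721 in limma. The unadjusted p was under 0.05 in limma for 5 of the 9 in C17.2a, against 16.5% of all genes, and for 5 of the 9 in C17.2b, against 13.0%. Adamtsl1, Negr1 and Cyfip2 were lower with no overlap in C17.2a, 3 of the 9, against 5.58% of all genes. Adamtsl1 was below 1 RPM in all 3 C17.2a T3 libraries and passed the filter through the untreated ones alone. That leaves it no way to overlap. B3galt2 and Ndn were below the filter in the C17.2a libraries, so this count could not include them.

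Prex1 was the exception in sign among the 9, at 0.80 in C17.2a (SE 0.32, adjusted p 0.281 in limma). Its ratio of T3 to untreated was 3.71, 1.55 and 0.989 at the 3 times in C17.2a, while in C17.2b it was 1.06, 0.701 and 0.554. Without the C17.2a 24 h pair, Prex1 had 1.20 (adjusted p 0.0288 in limma) and Btc -0.88 (adjusted p 0.0221), so that 2 of the 9 passed, as did 462 of 10391 genes. Without the C17.2a 6 h pair, Prex1 had 0.29 (adjusted p 0.576 in limma), so its value rests on which pairs are used. Leaving out the 24 h pair gave -0.60 for Mark1, -0.50 for Cyfip2 and -0.21 for B3galt2.

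At all 3 times T3 values were lower for 6 of the 9 in C17.2b, against 16.4% of all genes, and for 6 of the 9 in C17.2a, against 18.8%. Btc, Adamtsl1, Negr1 and Pcdh20 were lower with T3 in all 6 pairs of libraries, 4 of 9, against 6.26% of all genes. Whether the response differed between the lines was tested directly. Taking the effect in C17.2a from the effect in C17.2b left -1.29 (SE 0.28) for Adamtsl1, -1.21 (SE 0.46) for Prex1, -0.76 (SE 0.28) for Pcdh20, -0.68 (SE 0.28) for B3galt2, -0.54 (SE 0.26) for Btc and 0.57 (SE 0.38) for Cyfip2. It was -0.51 (SE 0.31) for Mark1, 0.20 (SE 0.31) for Ndn and 0.09 (SE 0.33) for Negr1. The log2(RPM + 1) scale understates the fall of Adamtsl1 in C17.2a, where it is near 1 RPM, and so enlarges its difference. None of the 9, and none of the 10577 genes (0.00%), passed, with adjusted p of 0.722 to 0.925 in limma for the 9. At an unadjusted p under 0.05 in limma there were 4 of the 9 (Adamtsl1, Prex1, Pcdh20 and B3galt2) and 5.51% of all genes. Because the choice of genes rests on the untreated libraries, this test is not independent of it, and the choice tends to push the difference below 0.

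**Figure D3:**
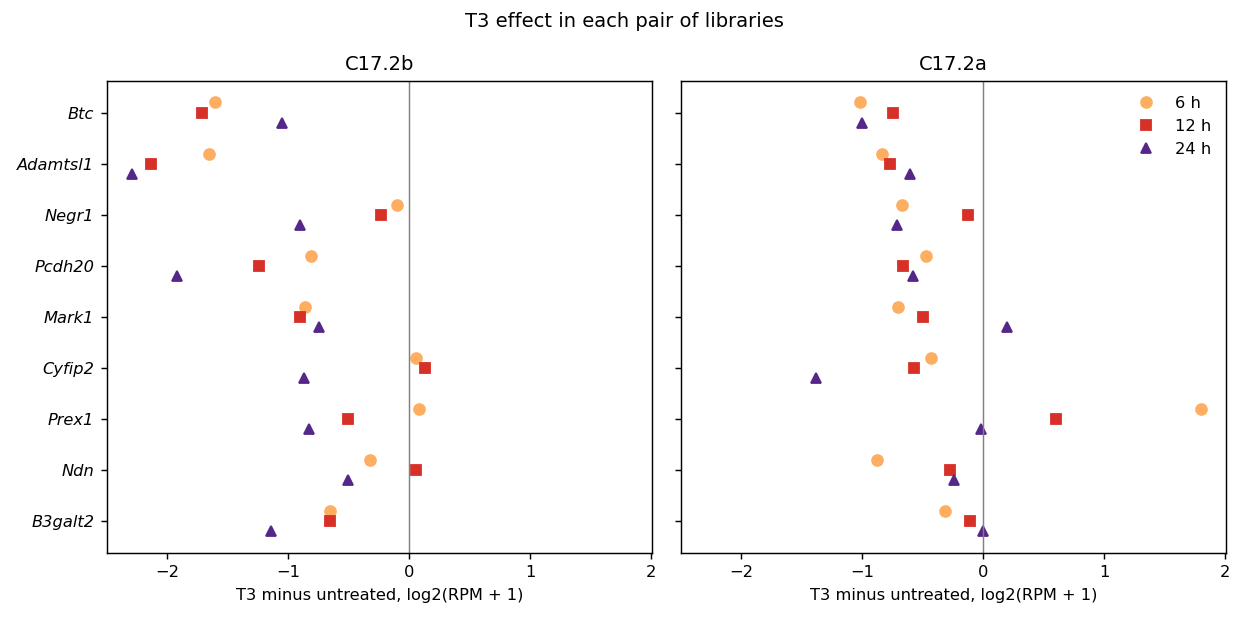
T3 effect in each pair of libraries, T3 minus untreated in log2(RPM + 1), for each of the 9 genes, in C17.2b (left) and C17.2a (right); symbols give the time of 6, 12 or 24 h. Btc, Adamtsl1, Negr1 and Pcdh20 lie left of 0 in all 6 pairs, and Prex1 in C17.2a at 6 h lies farthest right.

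Time in culture moved some of the genes without hormone. Between 24 and 6 h in untreated cells, with the line as a block, Btc fell by 1.21 on the log2 scale (SE 0.17, adjusted p 0.000327 in limma), to 36.35 RPM at 24 h, against 93.34 RPM at 6 h in C17.2b, and to 6.23 RPM, against 14.30 RPM, in C17.2a. Pcdh20 was higher by 0.44 (SE 0.15, adjusted p 0.0291 in limma), while the median over all genes was 0.40. With median-ratio scaling that median was -0.03 and Pcdh20 had -0.04, so its direction flips with the scaling. In this comparison 56.1% of all genes passed, 43.0% higher and 13.1% lower, and 2 of the 9 did, while 61.3% and 3 of the 9 had an unadjusted p under 0.05 in limma. Mark1, at -0.58 (SE 0.23, adjusted p 0.0509 in limma), did not pass, and the other 6 had values of -0.50 for B3galt2 to 0.33 for Negr1, with adjusted p of 0.107 to 0.743.

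The families and pathways around the 9 genes were followed in the same comparisons. With T3, 0 members of any of the 10 lists differed between the lines past the threshold, but only 1 of all 10142 genes tested did (0.00986%). The other differences between the lines are those without T3. Among the other EGF ligands and ErbB receptors 0 of 7 were higher in C17.2b and 2 were lower. These were Hbegf, another ligand of the EGF receptor, at -0.56 (adjusted p 0.0198 in limma) and Egfr, the receptor itself, at -0.77 (adjusted p 0.0429). Egfr had 4.30 to 8.93 RPM in untreated C17.2b and 5.77 to 16.37 RPM in untreated C17.2a. The list's median stood at 0.04, against -0.04 for all genes tested.

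Of the other ADAMTS and ADAMTS-like genes, 1 of 11 was higher in C17.2b and 5 were lower. Adamtsl4, a matrix protein of the same family as Adamtsl1, had -2.06, with 0.68 to 2.44 RPM in untreated C17.2b and 5.15 to 16.54 RPM in untreated C17.2a. Adamtsl3 had -1.35, while the protease gene Adamts17 was the 1 that was higher, at 0.94, and the list's median was -0.04. Of the other protocadherins, 0 of 4 were higher and 2 lower, with Pcdh7 at -0.76 (adjusted p 0.0237 in limma), Pcdh18 at -0.75 (adjusted p 0.0116) and a list median of -0.42. Among immunoglobulin adhesion genes that include the IgLON relatives of Negr1, 3 of 8 were higher and 1 lower, with a median of 0.38. The neural adhesion genes Alcam, Chl1 and L1cam had 1.09, 0.97 and 0.57, and Ncam1 had -1.03 (adjusted p 0.00247 in limma).

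In the list of MARK kinases, their substrates and polarity partners, 1 of 11 was higher in C17.2b. This was Mapt, the microtubule protein tau, at 1.23 (adjusted p 0.00212 in limma), with 20.90 to 22.99 RPM in untreated C17.2b and 6.66 to 11.23 RPM in untreated C17.2a. None of the 8 other WAVE complex genes passed, and among other Rac exchange factors and partners Arhgef7, at 0.63, was higher and Elmo1, at -0.59, lower. None of 7 genes of the MAGE family and the Prader-Willi region passed, and none of 12 galactosyltransferases and related glycosyltransferases, and among 10 other imprinted genes Mest was lower, at -0.66 (adjusted p 0.0367 in limma). The medians of these 6 lists lay between -0.24 and 0.25. The shares for all genes in this comparison were 2.93% higher and 5.92% lower.

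Over all genes tested, T3 raised 2.25% and lowered 0.860% in C17.2b, and raised 0.908% and lowered 0.463% in C17.2a. With T3 in C17.2b, the adhesion list held 1 gene of 8 that rose, Iglon5 at 2.12, and 2 that fell, Chl1 at -2.07 and Ntm at -1.26. In C17.2a both fell too, Chl1 at -1.74 and Ntm at -1.38. Elmo2, a partner of the Rac exchange factor Dock1, rose in both lines, by 1.66 in C17.2b and 1.67 in C17.2a. Pcdh1 rose in C17.2b, by 0.87 (adjusted p 0.0104 in limma), in contrast to Pcdh20. Of the ADAMTS list Adamts2 at 1.57 and Adamts17 at 1.24 rose in C17.2b, and none fell. Adamts17 also rose in C17.2a, by 1.18 (adjusted p 0.0488 in limma). Of the imprinted genes, Zrsr1 rose in C17.2b (0.72, adjusted p 0.0433 in limma), while Mest fell in both lines, with -1.36 in C17.2b and -1.45 in C17.2a. B3gnt2, an N-acetylglucosaminyltransferase on the glycosyltransferase list, rose by 1.19 in C17.2b and 0.93 in C17.2a. In C17.2b 0 genes of the EGF, MARK, WAVE and MAGE lists passed in limma, and the medians of the 10 lists lay between -0.10 and 0.25 there.

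The name of neural progenitors was checked against markers. Of 16 progenitor markers 12 were in the table and 11 had at least 1 RPM in 3 libraries, with Nes at 70.23 to 641.71 RPM and Sox2 at 61.96 to 305.94 RPM over the 12 libraries. Of 22 neuron markers 12 were in the table and 7 passed the same limit. Tubb3 had 44.48 to 576.39 RPM, but Elavl3, Elavl4, Gap43 and Syn1 did not exceed 0.60 RPM in any library, and each had N/A in 2 or more libraries. The 9 genes were thus measured in cells that had the progenitor markers Nes and Sox2 and in which several neuron markers were near the floor.

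Some cell type markers differed between the lines without T3, where 2.93% of all genes were higher in C17.2b and 5.92% lower. With T3, none of the markers tested passed the threshold, but only 1 of all 10142 genes tested did (0.00986%). The summed progenitor markers ran from 3066 to 5730 RPM in untreated C17.2b and from 2377 to 5838 RPM in untreated C17.2a, and 3 of 10 tested were higher in C17.2b without T3 (Fabp7 at 2.02, Prom1 at 1.16, Sox2 at 0.61). The summed neuron markers ran from 132 to 660 RPM in C17.2b with T3 and 68.1 to 124 RPM in C17.2a with T3, and from 135 to 352 RPM in untreated C17.2b and 90.1 to 191 RPM in untreated C17.2a. Of 5 tested without T3, Mapt and Tubb3 were higher in C17.2b, by 1.23 and 0.67. Of the oligodendrocyte lineage, Sox10 was higher, by 0.72 (adjusted p 0.0149 in limma), as was Cnp, by 0.78, and Pdgfra was lower, while Cspg4 was listed as N/A in 8 libraries.

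Most fibroblast markers had lower values in C17.2b. Their sum ran from 2938 to 6648 RPM in C17.2b with T3 and from 5299 to 11080 RPM in C17.2a with T3, and from 3635 to 6226 RPM in untreated C17.2b and 6054 to 9600 RPM in untreated C17.2a. Of 7 tested without T3, 6 values were negative and 1 positive, and Col1a1 and Col3a1 passed as lower in C17.2b, at -1.29 and -0.72. Postn, on the same list, had 892 to 1569 RPM in untreated C17.2b and 659 to 1413 RPM in untreated C17.2a. With T3 it had 402 to 694 RPM in C17.2b and 266 to 447 RPM in C17.2a. Thy1 was listed as N/A in 9 libraries. The astrocyte markers summed to 212 to 283 RPM in untreated C17.2b and 207 to 308 RPM in untreated C17.2a, with 0 of 5 higher and 1 lower in C17.2b in limma. Microglial Cx3cr1 did not exceed 0.42 RPM, and of the endothelial markers 1 of 2 in the table passed the limit of 1 RPM in 3 libraries. The part of these markers in the differences between the lines was not tested.

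Over the 12 libraries, the genes whose pattern lay nearest to the mean of the 9 were Srgap1, Ptprz1, Egflam, Sash1 and Fabp7. Nearness was the root mean square difference, in log2(RPM + 1) centred on each gene's mean, from the mean profile of the 9 genes, over 9539 other genes. It was 0.285 for Srgap1, a GTPase-activating protein of the Slit-Robo pathway, and 0.426 for Fabp7, a fatty acid binding protein of radial glia, with a median of 1.21 over the candidates. Ptprz1, a receptor phosphatase of glia and progenitors, stood at 0.327. The 9 genes themselves ran from 0.201 for B3galt2 to 0.662 for Prex1, so all 5 of these genes lay nearer to the mean profile than Prex1 did.

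Srgap1 had 9.39 to 15.50 RPM in C17.2b with T3, 20.99 to 24.28 RPM in untreated C17.2b, 2.41 to 2.98 RPM in C17.2a with T3 and 5.15 to 7.58 RPM in untreated C17.2a. Its 4 groups did not overlap and stood in the order of those of Adamtsl1. The mean profile of the 9 genes stood at 0.88, 0.66 and 0.24 in C17.2b with T3 at 6, 12 and 24 h, at 1.53, 1.46 and 1.38 in untreated C17.2b, at -1.08, -1.17 and -1.43 in C17.2a with T3, and at -0.69, -0.82 and -0.95 in untreated C17.2a. It thus ordered the 4 groups as untreated C17.2b, C17.2b with T3, untreated C17.2a and C17.2a with T3 at each time. The untreated libraries chose the 9 genes, so the place of untreated C17.2b above untreated C17.2a follows from the choice.

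**Figure D4:**
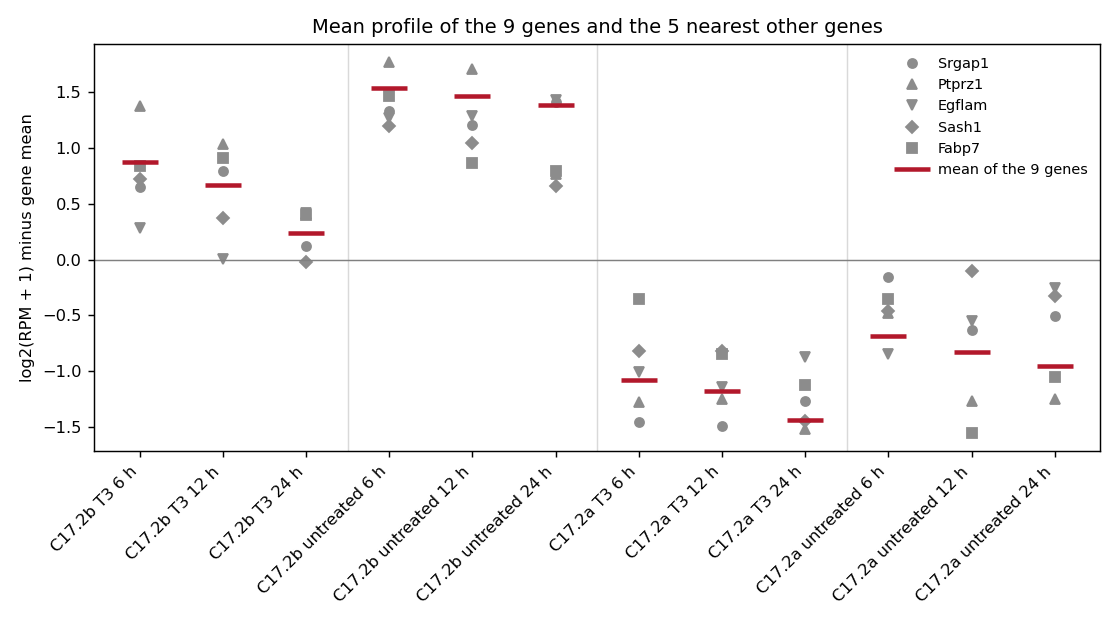
Mean of the 9 genes (red bars) and the 5 other genes nearest to it (grey symbols) in each of the 12 libraries, as log2(RPM + 1) minus the gene's own mean over the libraries. The red bars are highest in untreated C17.2b, at 1.38 to 1.53, and lowest in C17.2a with T3, at -1.43 to -1.08. The untreated libraries chose the 9 genes.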

How the data were processed

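Messenger RNA of 12 libraries was deposited by the authors as 1 table of 12774 symbols in RPM (from the values, since the columns have 1 common total). The submitters' processing notes name the build mm9. The aligner and the rule assigning tags to genes are not given in the sources used here. Between 90.0% and 93.8% of low values lay on steps of 1 tag (tolerance 0.0055 RPM), so whole counts were not recovered. N/A was read as 0.

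A count test had been planned for counts. As the table holds RPM, log2(RPM + 1) was tested with limma 3.58.1 in R 4.3.3 (lmFit, eBayes with trend, Benjamini-Hochberg over all genes tested at 0.05). The script was tested on simulated data. The lines with T3 were compared with time as a block (6 libraries, 2 residual degrees of freedom), T3 in each line and its difference with each pair of line and time as a block (12 libraries, 4), and untreated cells at 24 h against 6 h with the line as a block (2). No label gives separate cultures, so p-values measure the spread between times and pairs, which may be technical. The 9 genes and the lists around them were chosen with earlier results of these data known. The plan had been to name the list members of highest mean RPM and those past the threshold between the lines with T3. Apart from the 9, the genes named were instead list members past the threshold in any comparison, markers, and the 5 genes nearest in pattern. Col15a1 was named as the only gene past the threshold between the lines with T3. 1 gene that this rule picks is not reported here. Alternatives were pseudocounts of 0.5 and 5, no filter, a filter at 5 RPM, median-ratio scaling, no block, other sets of libraries, and leaving out each time or pair. Promoter sequences are from RefSeq (GRCm38.p6).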

Additional observations from a re-analysis of the deposited data

How the results depend on the processing

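The p-values rest on few residual degrees of freedom, so the counts of genes past 0.05 moved more than the values. For the lines with T3, the 9 genes kept their sign in all 77 alternative values. The filter settings, the fit without a time block and the fit on all 12 libraries leave the value itself unchanged. Only the other alternatives could have changed a sign. The count of 0 of the 9 became 5 with median-ratio scaling and 9 with the spread from all 12 libraries, and ran from 0 to 5 when a time was left out. The 1 gene past the threshold among all genes became 0 with a pseudocount of 5, without a filter and without the time block, 94 with median-ratio scaling (35 higher, 59 lower) and 464 with all 12 libraries (212 higher, 252 lower), and ran from 0 to 1573 when a time was left out, the highest without 24 h. For T3 in C17.2b, the 3 of 9 became 5 with a pseudocount of 5 or with this line alone, 1 without the pair block, and ran from 1 (without the C17.2b 12 h pair) to 5 (without the C17.2a 24 h pair) when a pair was left out. The 329 genes in all became 86 without the pair block and 1086 with this line alone, and ran from 39 to 1178 when a pair was left out. The Cyfip2 value was -0.41 to 0.094 there, above 0 without the C17.2b 24 h pair. For T3 in C17.2a, the 0 of 9 became 1 with a pseudocount of 0.5 (Btc, adjusted p 0.0494 in limma) and ran from 0 to 2 when a pair was left out. The 145 genes in all became 28 without the pair block and 12 with this line alone, and ran from 32 to 462. For the difference of the T3 effect between the lines, 0 of the 9 passed under each alternative, and 0 to 2 genes in all when a pair was left out. Negr1 had -0.13 with a pseudocount of 5 and -0.017 with median-ratio scaling, and -0.065 to 0.33 when a pair was left out. Ndn had -0.032 with a pseudocount of 5 and -0.0017 to 0.33 when a pair was left out. For 24 h against 6 h, the 2 of 9 became 4 with median-ratio scaling, all lower, and 0 without the line block. With median-ratio scaling Negr1 had -0.027, Pcdh20 -0.039 and Prex1 -0.38, and the genes past the threshold split into 2433 higher and 2718 lower, against 4384 and 1336 as deposited. That scaling moved the median over all genes to -0.03, against 0.40, and in the difference of the T3 effect to -0.00, against 0.12. For the lines without T3, 13 of the 51 alternative values moved by more than the spread between times, 12 of them with another pseudocount. The replicate numbers in use only name the libraries, and no group has a second one. The causes of these changes were not tested. Depth limits the C17.2a values of B3galt2, Ndn, Negr1 and Adamtsl1, which rest on few tags.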
